A study of Homo sapiens with 6 samples.

Results

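The ID genes ID1, ID2, ID3 and ID4 were the rows of the count table that carry these symbols, 4 of 60591 rows in all, and all 4 passed the expression filter that kept 20676 genes. The cells were MDA-MB-231, an established line of human triple-negative breast carcinoma, in the form labelled as its bone-homing variant, exposed to fluid shear in a 3D model of bone under mechanical load. The 3 groups were static cells with no flow (0 mL/min), low flow (1 mL/min) and high flow (15 mL/min), each with 2 libraries of poly(A) RNA numbered replicates 1 and 2. Every group is the same line and variant, so the data describe 1 cell line, and the duration of flow was not stated in the labels. The labels give the cell type as endothelial cancer cells. The carcinoma markers KRT8, KRT18, VIM, CD44 and EGFR lay above 120 CPM (counts scaled to the TMM-adjusted library total) in every library, KRT19 lay at 27.5 to 70.4 CPM and EPCAM at 2.69 to 4.26 CPM, while the endothelial genes CDH5, CLDN5 and VWF stayed at or below 0.22 CPM. The 8 endothelial markers together came to 65.2 to 87.5 CPM in static, 82.1 to 95.4 under low flow and 91.3 to 94.7 under high flow, mostly from TIE1, ESAM and PECAM1, and their part in the results was not tested.

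ID proteins are helix-loop-helix proteins that lack the basic region with which related factors bind DNA. They pair with the E proteins TCF3, TCF4 and TCF12 and keep them and their partners off E-box sequences, which delays differentiation and favours proliferation. Their genes are direct targets of BMP signalling through SMAD1 and SMAD5, and TGF-beta can raise or lower them depending on the cell. In breast cancer ID1 and ID3 are known for their part in lung colonisation by MDA-MB-231 derivatives, ID2 binds proteins of the retinoblastoma family and responds to MYC and hypoxia, and ID4 is known as a repressor of BRCA1.

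The 4 genes were chosen by name with earlier results on the same counts known, and the measured values behind that choice were the log2 fold changes of ID2 (lower) and ID3 (higher) against static. The levels of ID2 and ID3 against static are therefore given as a description, with no p-value, and nothing is rested on them. The comparisons of low and of high flow with static use the same static libraries.

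ID1 lies on chromosome 20 (31605283 to 31606515, plus strand), ID2 on chromosome 2 (8678845 to 8684453, plus), ID3 on chromosome 1 (23557918 to 23559794, minus) and ID4 on chromosome 6 (19837386 to 19840684, plus), all in GENCODE 29 on GRCh38. The annotated exons of the antisense gene ID2-AS1 share 38 bases with those of ID2 on the opposite strand. ID2-AS1 was at 0.28 to 0.48 CPM in the 6 libraries and was not called against static (adjusted p = 0.962 under low and 0.915 under high flow in edgeR's quasi-likelihood test). The members' transcripts had a GC content of 58.6% for ID1, 53.3% for ID2, 57.2% for ID3 and 47.0% for ID4.

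The 250 bases before each RefSeq start (GRCh38.p14) were searched on both strands for short motifs of factors known to act on these genes. These starts differ from the ends of the gene spans given above. The windows of ID2 (8681806 to 8682055) and ID3 (23559502 to 23559751) lay wholly inside those spans. The window of ID1 (31605039 to 31605288) reached a few bases into its span, and that of ID4 lay before its span. CAGAC, the core of the SMAD-binding element, occurred once before ID3 and once before ID4, and in 38.0% of 35116 windows of the same length. CANNTG, the E-box, occurred once before ID2 and once before ID4, and in 61.8% of windows. ACGTG, the hypoxia response core, occurred once, before ID2, and in 18.5% of windows. The CCAAT box had 3 matches before ID2, 1 before ID1, 1 before ID4 and 0 before ID3, and was present in 32.0% of windows. GGCGCC (16.4% of windows), CACGTG (6.34%), which is also a CANNTG and holds ACGTG, TGACGTCA (1.65%) and GCGTGGGCG (0.72%) were in none of these 4 windows. The 5 matches to the first 3 motifs are shown with their flanks, 5′ to 3′ on the gene's strand with the motif in capitals, so that the E-boxes of ID2 and ID4 and the SMAD cores of ID3 and ID4 can be compared letter by letter.
ID2 E-box, chr2:8681839-8681868, plus strand: tatttaccacccCAGCTGggctcgcgcccc
ID4 E-box, chr6:19837337-19837366, plus strand: gctctataaataCAGCTGcgcggcgggccg
ID2 hypoxia core, chr2:8681951-8681980, plus strand: tcgtcttgatagACGTGccaccttccgcca
ID3 SMAD core, chr1:23559631-23559660, minus strand: ggtcttcggcgtCAGACcagccggaggaag
ID4 SMAD core, chr6:19837153-19837182, plus strand: ggctggccactcCAGACcccccgcccactc
Counted from the RefSeq starts, the E-box began 205 bases before ID2 and 21 before ID4. The hypoxia core began 93 before ID2, and the SMAD core 147 before ID3 and 205 before ID4. Both E-boxes read CAGCTG. A match is a run of letters, not evidence of binding.

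Library totals were 17822642 and 23544307 counts in static and between 43965176 and 53279537 in the flow libraries, so static values rest on fewer reads. The smallest count of any member was 64, for ID4 in static replicate 1. By the column names the static and low flow libraries shared a lane and both high flow libraries were in another. The high flow names also had another form and suffix. In comparisons with high flow, a flow difference cannot be told apart from a difference of lane or any other that goes with these names. The labels do not say that the 2 libraries of a group came from separate cultures, and the test then measures only the spread between these libraries. In bulk RNA, fewer cells expressing a gene and less of its RNA per cell cannot be told apart.

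ID2, the member that binds retinoblastoma proteins, was the member with the largest difference from static under both flow rates. Its level was 35.1 and 42.4 CPM in the static libraries, 18.4 and 11.2 CPM under low flow and 13.4 and 12.7 CPM under high flow. Both static libraries lay above all 4 flow libraries, with a gap from 35.1 to 18.4 CPM. Mean levels were 38.7 ± 5.17, 14.8 ± 5.09 and 13.1 ± 0.52 CPM (SD, n = 2). The log2 fold change was -1.39 (SE 0.22) for low flow against static, a level 2.63-fold lower, and -1.57 (SE 0.22) for high flow. The 2 flow rates overlapped, and their difference of -0.18 (SE 0.22) was not called by edgeR (adjusted p = 0.841). The test does not show that ID2 was equal under the 2 rates.

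ID3 went the other way. It was at 11.5 and 12.04 CPM in static, 19.5 and 17.1 CPM under low flow and 21.7 and 21.8 CPM under high flow. The 3 groups did not overlap, and their order followed the flow rate. The step from low to high flow also goes with the change of lane, and 42.7% of all genes did not overlap there. Means were 11.8 ± 0.41, 18.3 ± 1.66 and 21.8 ± 0.07 CPM (SD, n = 2), with log2 fold changes against static of 0.64 (SE 0.12) and 0.89 (SE 0.12), or 1.56-fold and 1.85-fold. Between the flow rates the log2 fold change was 0.25 (SE 0.11), and it did not pass after adjustment over 20676 genes (edgeR adjusted p = 0.500).

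**Figure D1:**
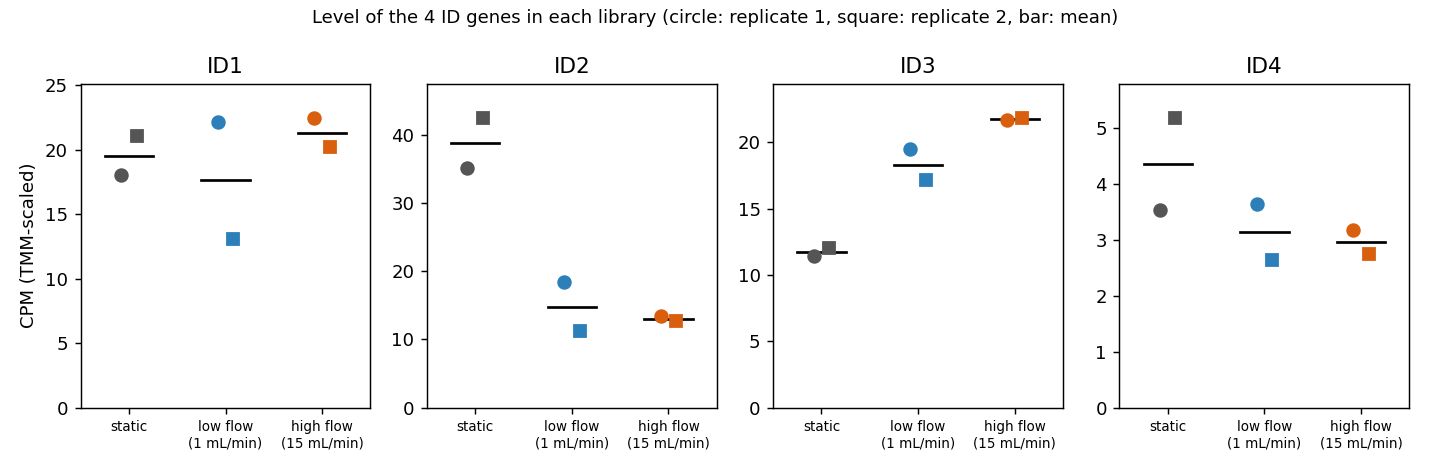
CPM of each ID gene (vertical axis, from 0, with its own scale per gene) in the 2 static, 2 low flow and 2 high flow libraries, with bars at the group means. ID2 is above 35 CPM in both static libraries and below 19 CPM in the 4 flow libraries, ID3 is lowest in static, and the 2 low flow points of ID1 are the widest pair in its panel.

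ID1, the member most studied as a BMP target, did not differ between groups beyond the spread of its libraries. Static libraries had 18.0 and 21.0 CPM, low flow libraries 22.1 and 13.1 CPM, and high flow libraries 22.4 and 20.2 CPM. Low flow replicate 1 was near the high flow level and low flow replicate 2 was the lowest of the 6. The log2 fold changes were -0.15 (SE 0.24, adjusted p = 0.759) for low flow against static, 0.12 (SE 0.24, adjusted p = 0.787) for high flow against static and 0.27 (SE 0.23, adjusted p = 0.753) for high against low flow, all in edgeR. The low flow value rests on which library is kept: without low flow replicate 1 it was -0.58 (edgeR adjusted p = 0.00555), and without low flow replicate 2 it was 0.18 (adjusted p = 0.715). High against low flow was 0.70 without low flow replicate 1 (edgeR adjusted p = 0.00353) and -0.06 without low flow replicate 2.

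ID4, the BRCA1 repressor, was the least abundant member. Its libraries had 3.53 and 5.17 CPM in static, 3.64 and 2.64 CPM under low flow and 3.18 and 2.74 CPM under high flow. Low flow overlapped static, and high flow lay below it. The log2 fold changes against static were -0.48 (SE 0.23, edgeR adjusted p = 0.214) and -0.57 (SE 0.23, adjusted p = 0.108), and neither passed the threshold of 0.05. Low flow passed without low flow replicate 1 (-0.73, edgeR adjusted p = 0.0448). High flow passed in edgeR with only the 4 libraries compared (adjusted p = 0.0463), and also when either of the low flow libraries was left out of the fit (adjusted p = 0.0475 and 0.0452). The high against low flow difference was -0.09 (SE 0.22, edgeR adjusted p = 0.934).

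Against static the members called were ID2 (lower) and ID3 (higher), 2 of 4 under each flow rate, which is what the choice of the family fixed and is no test of it. Of all tested genes 6.74% were called under low flow (3.25% higher and 3.49% lower) and 13.9% under high flow (7.49% higher and 6.43% lower). Nothing is read from the members' count beside these shares. Between the flow rates edgeR called 0 of 4 members, with 1 at an unadjusted p under 0.05 and 0 by DESeq2, beside 0.334% of all genes (0.242% higher and 0.0919% lower). Groups did not overlap for 2 members under low flow against static, 3 under high flow and 1 between the rates, and for 53.4%, 59.3% and 42.7% of all genes. Across genes the log2 fold change went with transcript GC content (Spearman's rho 0.06 for low flow against static, 0.31 for high flow against static and 0.45 between the rates, over 19604 genes that share the libraries). With offsets for length and GC the values against static were -1.36 and -1.56 for ID2 and 0.66 and 0.83 for ID3. Leaving out static replicate 1 gave a log2 fold change of -1.52 for ID2 under low flow. Leaving out static replicate 2 gave -1.24 and -1.42 for ID2 under low and high flow and 0.68 for ID3 under low flow. The calls of ID2 under both rates and of ID3 under low flow were not kept in every alternative. These values come from the libraries behind the family's choice, so calls kept or lost are a description and no support.

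**Figure D2:**
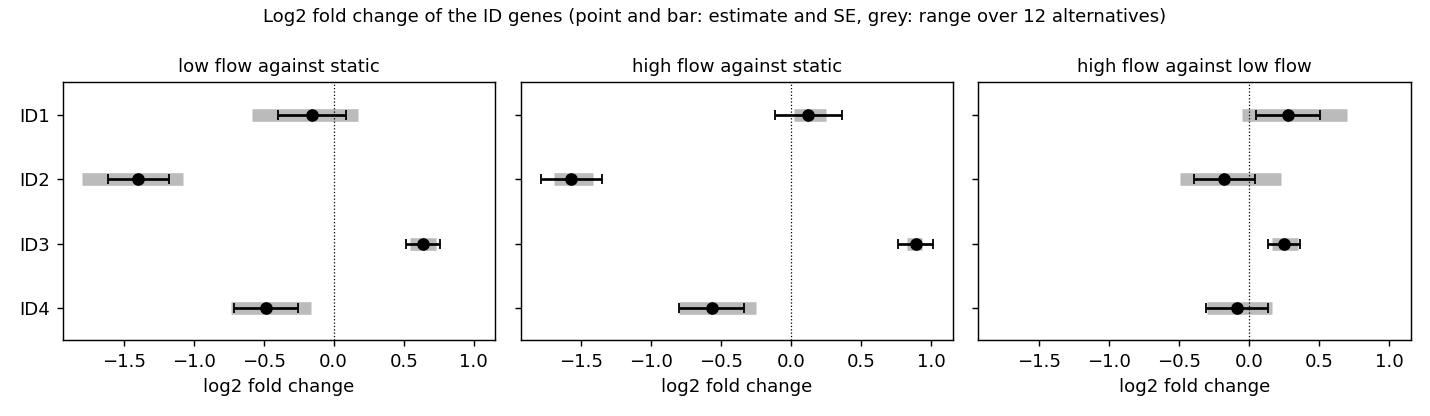
Log2 fold changes (horizontal axis) of the 4 ID genes in the 3 comparisons, with points and bars for the estimate and its SE and grey bands for the range over 12 alternative analyses. The bands of ID2 and ID3 stay on their own side of 0 against static, from -1.79 to -1.08 and from 0.54 to 0.73 under low flow, while the band of ID1 under low flow runs from -0.58 to 0.18.

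Ratios of members within a library need no scaling between libraries. The raw count of ID2 was 3.06 and 3.52 times that of ID3 in the static libraries. It was 0.94 and 0.65 times that of ID3 under low flow, and 0.62 and 0.58 times under high flow. Static cells thus held more ID2 than ID3 reads in both libraries, and the flow cells held fewer in all 4. The ratio of ID1 to ID2 was 0.51 and 0.50 in static, 1.20 and 1.17 under low flow and 1.67 and 1.59 under high flow. This ratio was close between replicates in each group, also under low flow, where ID1 and ID2 had each differed between the libraries by over 0.7 on the log2 scale. ID1 to ID3 stood at 1.57 and 1.75 in static, 1.14 and 0.76 under low flow and 1.03 and 0.92 under high flow. The ratios combine the ID2 and ID3 values that led to the family's choice, so they are given without a test.

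**Figure D3:**
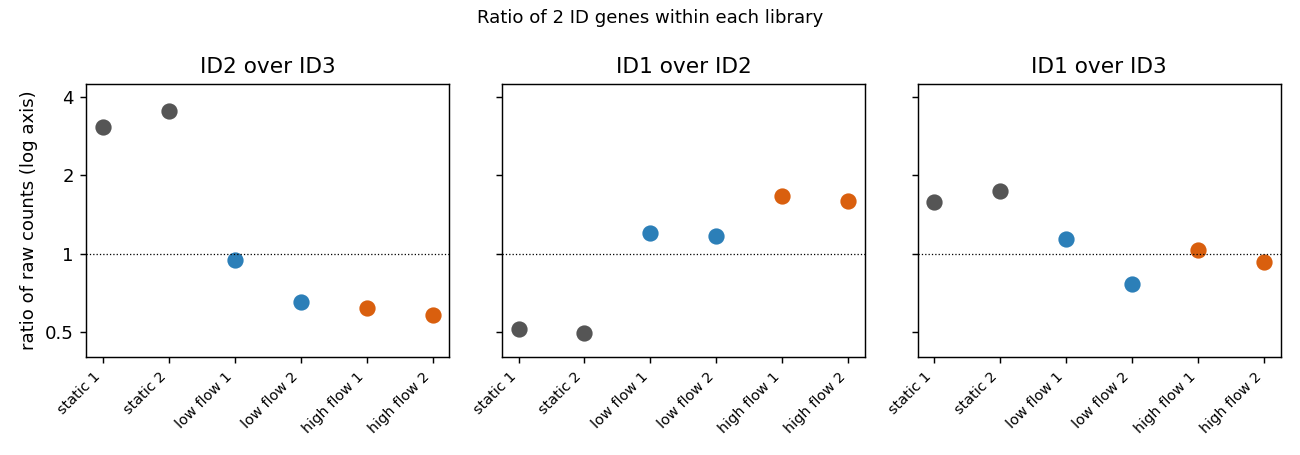
Ratio of the raw counts of 2 ID genes (vertical log axis) in each of the 6 libraries, with the dotted line at 1. ID2 over ID3 is above 3 in both static libraries and below 1 in all 4 flow libraries, and ID1 over ID2 is above 1 in the flow libraries.

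Levels of different members were compared per kilobase of annotated exon (CPM per kb). In static, ID2 was at 17.6 ± 2.35, ID1 at 15.8 ± 1.73, ID3 at 6.54 ± 0.23 and ID4 at 1.86 ± 0.50 CPM per kb (SD, n = 2). With these lengths the means of ID2 and ID1 in static differed by less than their spread. Within the 2 static libraries ID1 was 0.92 and 0.89 times ID2 per kb. Under high flow the order was ID1 at 17.3 ± 1.29, ID3 at 12.1 ± 0.04, ID2 at 5.92 ± 0.24 and ID4 at 1.26 ± 0.13. Under low flow ID1 was at 14.3 ± 5.18, ID3 at 10.2 ± 0.92, ID2 at 6.70 ± 2.31 and ID4 at 1.34 ± 0.30. Within the low flow libraries ID1 was 1.65 and 1.11 times ID3 per kb, with these lengths. ID2 made up 42.0 ± 0.80% of the summed level of the 4 genes in static, 20.4 ± 1.63% under low flow and 16.2 ± 0.07% under high flow (SD, n = 2). ID3 made up 15.7 ± 1.26%, 32.1 ± 5.77% and 33.2 ± 1.58%. The sum itself was 38.4 and 45.2 CPM per kb in static, 38.7 and 26.4 under low flow and 37.7 and 35.4 under high flow, so the lowest sum was that of low flow replicate 2. With the median length of the coding transcripts in place of all exons, ID2 in static came to 28.4 and ID1 to 17.5 CPM per kb, a wider gap than with all exons, and ID3 stood above ID1 in low flow replicate 2. The order in the other 5 libraries stayed as given.

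The members also varied between replicates. In static all 4 were higher in replicate 2, by 0.07 to 0.55 on the log2 scale, and under low flow all 4 were lower in replicate 2, by 0.75 for ID1, 0.71 for ID2, 0.18 for ID3 and 0.46 for ID4. A larger difference between the low flow libraries was found for 7.38% of tested genes in the case of ID1 and 8.3% in the case of ID2. Under high flow the differences between replicates lay between -0.21 and 0.01.

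The genes closest to each member over the 6 libraries were found by the root mean square (RMS) difference in log2 CPM, each gene centred on its own mean, among 12352 candidate genes (12353 for ID4) whose mean reached 4 CPM. For ID1 the closest was ATF3, a stress-induced factor known as a repressor of ID1, with an RMS difference of 0.0705. ATF3 was at 111 and 124 CPM in static, 151 and 85.0 CPM under low flow and 137 and 122 CPM under high flow, with the same low value in low flow replicate 2 as ID1. RBM24, an RNA-binding protein (0.102), and PPP1R15A, a stress-induced phosphatase subunit (0.104), came next. For ID2 the closest were ZFP36, an mRNA decay factor (0.195), EGR1, an immediate early zinc finger factor (0.207), and C11orf96 (0.221). EGR1 had 764 and 796 CPM in static, 437 and 284 CPM under low flow and 402 and 325 CPM under high flow, and its static libraries lay above the others as those of ID2 did. Around ID3 were the long noncoding RNA AC022034.1 (0.0663), SLC25A45 of the mitochondrial carrier family (0.0726) and the pseudokinase gene TRIB1 (0.0783), and around ID4 were ZNF367 (0.0858), NSRP1 (0.0860) and AATF (0.0932). With 6 libraries in 3 groups many genes share such a pattern, and the likeness is a description.

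**Figure D4:**
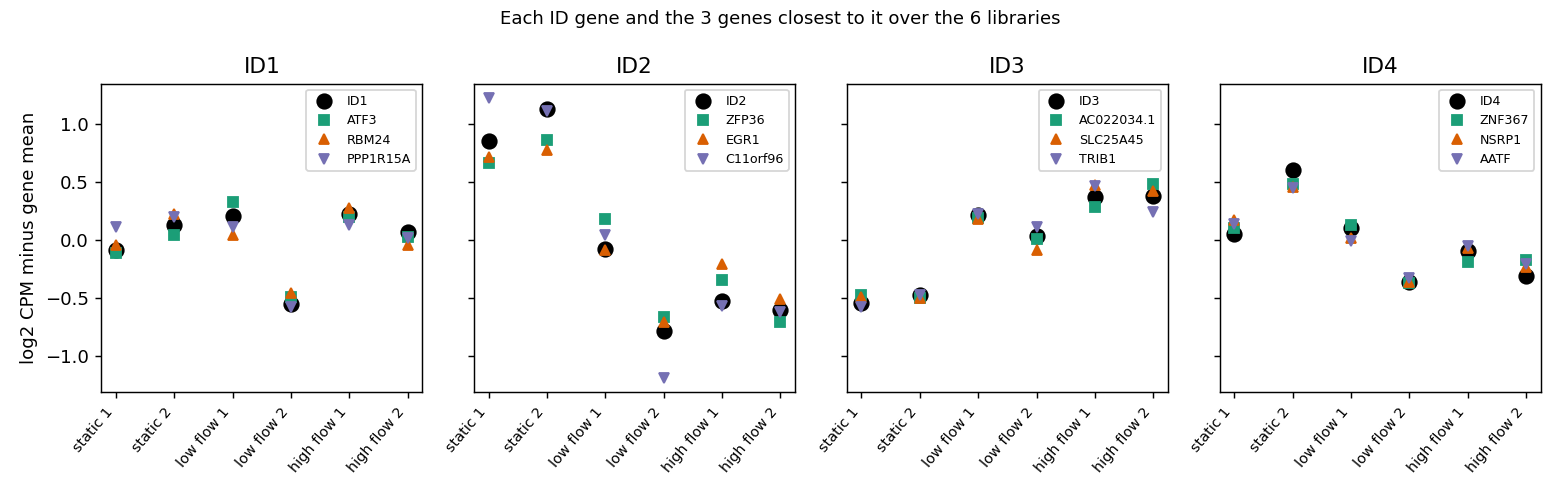
Log2 CPM minus each gene's mean (vertical axis) in the 6 libraries for each ID gene (black) and the 3 genes with the smallest RMS difference from it (colours). The low point of ID1 in low flow replicate 2 is shared by ATF3, RBM24 and PPP1R15A, and the static libraries stand highest for ID2, ZFP36, EGR1 and C11orf96.

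The nearest tested genes on both sides of each member were compared with it. Of these 8 neighbours, AL110115.2 and BCL2L1 by ID1, RNF144A and KIDINS220 by ID2, E2F2 by ID3, and RNF144B and MBOAT1 by ID4 were not called against static under either flow rate by edgeR. RPL11, a ribosomal protein gene 132 kb from ID3, was lower against static, by 0.47 on the log2 scale under low flow (edgeR adjusted p = 0.0160) and by 0.36 under high flow (adjusted p = 0.0337), while ID3 was higher. Ribosomal protein genes have near-identical copies elsewhere, so the RPL11 value is uncertain.

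The partners, upstream signals and targets of the ID proteins were taken from 12 lists of 120 genes, of which 79 passed the expression filter. The 3 E proteins, to which all ID proteins bind, did not pass against static. TCF3 had 70.3, 67.5 and 81.1 CPM in static, low and high flow, TCF4 12.2, 13.3 and 12.3 CPM, and TCF12 65.0, 63.9 and 59.6 CPM. In edgeR 0 of 3 were called in each comparison, 0 had an unadjusted p under 0.05 against static and 1 (TCF3) between the flow rates, and DESeq2 called 0. Their adjusted p against static ran from 0.186 to 0.987. Of 19 tissue-specific helix-loop-helix factors that pair with E proteins only SCX and NHLH1 passed the filter, and TWIST1 had no count in any library. Neither was called in any comparison by edgeR or DESeq2 or had an unadjusted p under 0.05.

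Of 6 tested BMP ligand genes 2 rose under each flow rate, where 3.25% and 7.49% of all genes were called higher. BMP2 rose from 11.5 ± 0.64 CPM in static to 17.8 ± 4.49 under low flow and 21.5 ± 2.71 under high flow (SD, n = 2), and BMP4 rose from 36.9 ± 1.67 to 50.7 ± 1.13 and 57.6 ± 9.22. The edgeR adjusted p were 0.0349 and 0.00383 for BMP2 and 0.0228 and 0.00194 for BMP4. With only the 4 libraries compared, the low flow call of BMP2 was lost (edgeR adjusted p = 0.0620). Of 9 receptor and coreceptor genes, ACVR1 rose 1.37-fold and BMPR2 1.28-fold under low flow, and ACVR1, ENG and RGMB 1.36-fold to 1.89-fold under high flow. The low flow calls of ACVR1 and BMPR2 were lost with only the 4 libraries compared (edgeR adjusted p = 0.0872 and 0.0843). Among the 6 SMAD transducers edgeR and DESeq2 called 0 in each comparison, with 0 at an unadjusted p under 0.05, and SMAD1 had 13.4, 11.6 and 11.3 CPM and SMAD5 95.9, 106 and 94.6 CPM in static, low and high flow.

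Of 13 tested inhibitors of the pathway, edgeR called 1 higher under low flow and 4 under high flow, and 0 lower. Of all genes 3.25% and 7.49% were called higher. DESeq2 called SMAD7 and SMURF2 under low flow, where the edgeR log2 fold change of SMURF2 was -0.28. At an unadjusted edgeR p under 0.05, SMAD7, BAMBI, TWSG1 and SKIL were higher and NOG, FST and SMURF2 lower under low flow. Under high flow SMAD6, SMAD7, BAMBI, SKI and SKIL were higher and SMURF2 lower at that threshold. SMAD7, which blocks receptors of the TGF-beta and BMP branches, had 42.0 and 43.7 CPM in static, 101 and 65.5 CPM under low flow and 152 and 135 CPM under high flow, with no overlap between groups. It rose 1.94-fold and 3.34-fold against static (edgeR adjusted p = 0.0287 and 0.00209). BAMBI, a pseudoreceptor, rose 1.71-fold under high flow (adjusted p = 0.00220), and SKI and SKIL, repressors of SMAD activity, rose 1.30-fold and 1.44-fold. SMAD6, the inhibitor more specific to BMP, did not pass (log2 fold changes 0.18 and 0.33, adjusted p = 0.448 and 0.116). The list of other BMP targets shares SMAD6, SMAD7, BAMBI and NOG with the inhibitors. Of its 11 tested genes 1 (SMAD7) rose under low flow, and under high flow SMAD7 and BAMBI rose while HEY1 and RUNX2 fell. Of 8 tested HES and HEY factors, edgeR called 1 under low and 4 under high flow, beside 6.74% and 13.9% of all genes. HES1 and HEYL, Notch effectors with which ID proteins can pair, rose under high flow, while HEY1 and HES7 fell. HES7 also fell under low flow. Of 9 other binding partners, edgeR called 1 under each rate, beside the same shares. RBL2 of the retinoblastoma family rose 1.40-fold under low flow (edgeR adjusted p = 0.0105) and 1.23-fold, not called, under high flow (adjusted p = 0.0558). RBL1 of the same family fell by 0.39 on the log2 scale under high flow (edgeR adjusted p = 0.0427). Under low flow its log2 fold change was -0.31, not called (edgeR adjusted p = 0.127).

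Among 7 known regulators of ID transcription, edgeR called 2 against static under each flow rate, beside 6.74% and 13.9% of all genes. The lists in this paragraph hold 6 or 7 tested genes, so nothing is read from their counts. EGR1 fell 2.16-fold under low and 2.15-fold under high flow (edgeR adjusted p = 0.0261 and 0.0159). MYC, an activator of ID2, fell by 0.40 on the log2 scale under low flow (adjusted p = 0.0383), was not called under high flow (0.32, adjusted p = 0.0587) and was 1.65-fold higher under high than low flow (adjusted p = 0.00427). With only the 4 libraries compared, MYC was not called under low flow (edgeR adjusted p = 0.0746) and was called higher under high flow (adjusted p = 0.0253). HIF1A did not pass under low flow and fell under high flow by 0.41. ATF3 did not pass against static, with adjusted p of 0.992 and 0.799. Of 6 genes of ID protein turnover, edgeR called 1 under low and 2 under high flow. USP1, the enzyme that removes ubiquitin from ID proteins, fell by 0.40 on the log2 scale under high flow, and FZR1 rose. CDC20 fell under low flow and was lower without a call under high flow (-0.33, edgeR adjusted p = 0.0523). Of 6 tested genes under ID or E protein control, edgeR called 1 under low and 4 under high flow. CDKN1A rose 1.54-fold under high flow, while CDKN1B and CDKN1C, likewise cell cycle inhibitors, fell by 0.55 and 0.69 on the log2 scale. CDKN1C also fell under low flow, by 0.80 (edgeR adjusted p = 0.00712). THBS1, which ID1 is known to repress, had 563 ± 41.3 CPM in static, 751 ± 178 under low flow and 1299 ± 19.5 under high flow. It rose 2.31-fold under high flow (edgeR adjusted p = 0.000119) and 1.33-fold, not called, under low flow (adjusted p = 0.0773). In high flow against static ID1 was not called (log2 fold change 0.12, SE 0.24), and a link between the 2 genes was not tested.

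**Figure D5:**
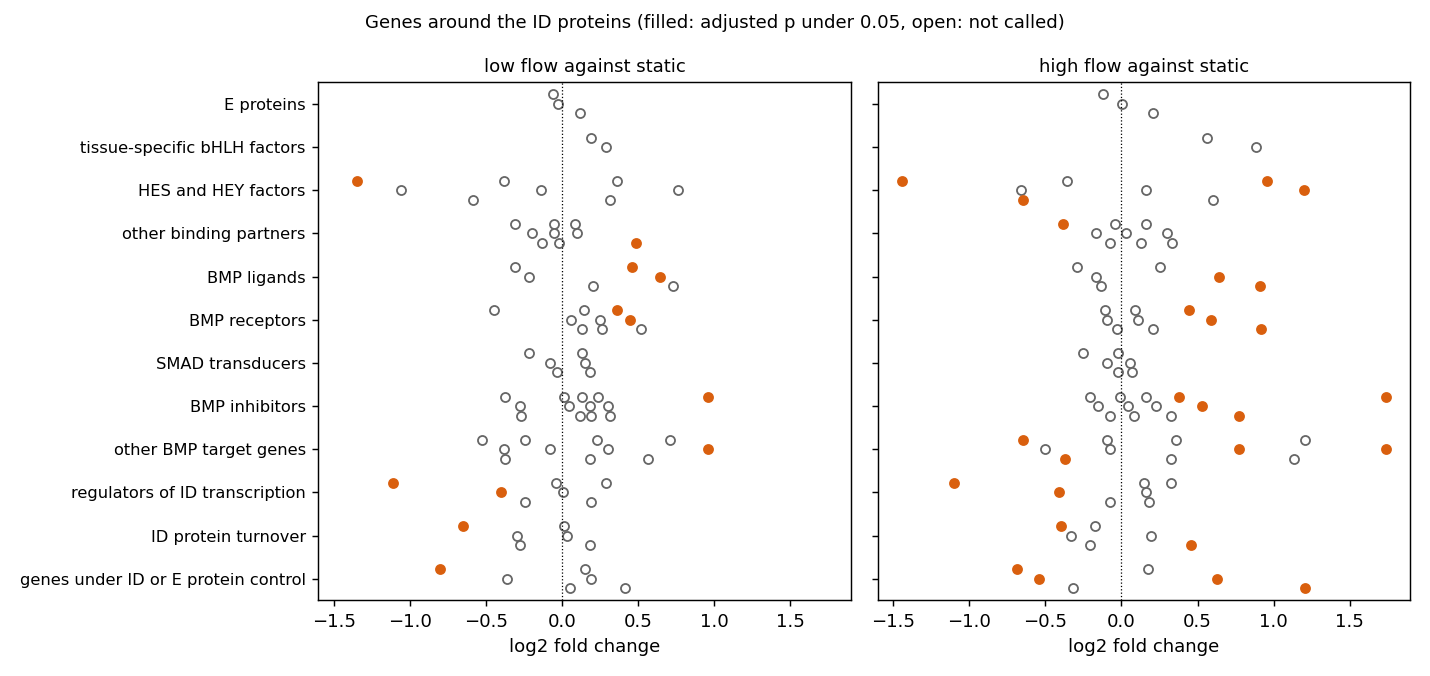
Log2 fold changes (horizontal axis) of the tested genes of the 12 lists for low flow (left) and high flow (right) against static, filled where the adjusted p is under 0.05. All called BMP ligands, receptors and inhibitors lie to the right of 0, and the called regulators of ID transcription lie to the left.

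Over the 79 genes, 6 rose and 5 fell under low flow, 14 rose and 9 fell under high flow, and 2 were higher and 1 lower between the flow rates. These are 13.9%, 29.1% and 3.8% of the 79, beside 6.74%, 13.9% and 0.334% of all genes. The lists were chosen with earlier results of these data known, and their genes were not matched to all genes by level. The difference between the shares is therefore a description and no test of the lists. The median log2 fold change over the 79 genes was 0.08, 0.08 and 0.05, beside 0.01, 0.00 and 0.01 over all genes. The calls depended on single libraries: of 11 under low flow, 4 were kept when static replicate 1 was left out, 2 (HES7 and CDC20) when static replicate 2 was, 6 when low flow replicate 2 was, and 7 when either high flow library was. Of 23 under high flow, 6 were kept without static replicate 2, 8 without high flow replicate 1 and 14 without high flow replicate 2. Leaving out high flow replicate 1 ended the 3 calls between the flow rates (MYC, CDKN1B and THBS1), leaving out high flow replicate 2 ended those of THBS1 and CDKN1B, and leaving out either static library ended that of THBS1, as did comparing only the 4 libraries. Offsets for transcript length and GC ended the calls of SMAD7 under low flow (log2 fold change 0.92 beside 0.96, edgeR adjusted p = 0.0595), of HIF1A, USP1, RBL1, ENG, SKI and FZR1 under high flow, and of THBS1 between the rates.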

How the data were processed

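RNA of 6 libraries, 2 per group, was measured by sequencing of poly(A) RNA with a KAPA stranded mRNA kit, per the labels' protocols. The authors deposited raw counts per gene. Alignment with STAR, counting with featureCounts and the build hg38 are named in the submitters' processing notes. Their versions and the strand setting are not given in the sources used here. Columns were matched to samples through the column names in the labels.

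CPM, fold changes and tests were computed here. The quasi-likelihood test of edgeR 4.0.16 (R 4.3.3) was run on all 6 libraries in 1 fit with TMM normalization, the default expression filter (minimum count 10) and robust dispersions, with 3 residual degrees of freedom. P-values were two-sided and adjusted by Benjamini-Hochberg over 20676 genes per comparison. SE came from the test statistic. Exon lengths, GC and positions came from GENCODE 29, where 55101 symbols matched 1 gene, and promoter windows from RefSeq, where all 4 members matched. The fit was tested on simulated counts.

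The members, gene lists, motifs and tests were chosen with earlier results of these data known. The genes named were the 4 members, a panel of 14 pathway genes, at most 4 called genes per list and comparison, the 3 genes most alike and the nearest tested gene on each side. Alternatives were RLE size factors, no expression filter, DESeq2 1.42.0, offsets for length and GC, a replicate block, only the 4 libraries compared, and each library left out. The length used for CPM per kb was varied after seeing the data.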

Additional observations from a re-analysis of the deposited data

How the results depend on the processing

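All 12 alternatives kept the direction of ID2 and ID3 against static. They re-use the libraries behind the choice of the family, so this is a description and no support for the direction. Without 1 library at a time, low flow against static ran from -0.58 to 0.18 on the log2 scale for ID1, -1.79 to -1.08 for ID2, 0.54 to 0.73 for ID3 and -0.73 to -0.16 for ID4. High flow against static ran from 0.02 to 0.24, -1.70 to -1.42, 0.85 to 0.93 and -0.81 to -0.25, and high against low flow from -0.055 to 0.70, -0.49 to 0.22, 0.16 to 0.34 and -0.30 to 0.16. With only the 4 libraries compared, ID4 under high flow was called at -0.57. Without an expression filter TCF12 under low flow turned to 0.0043 and SMAD5 under high flow to 0.016. With length and GC offsets SMAD5 was 0.082 and TCF3 -0.032 under high flow. With 1 library left out, TCF3 (-0.14 to 0.017), TCF12 (-0.053 to 0.011) and ATF3 (-0.46 to 0.36) under low flow, and TCF4 (-0.082 to 0.11) and SMAD5 (-0.11 to 0.060) under high flow, changed sign. The cause of these changes was not tested.

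Of 1394 genes called for low flow against static, the count was 2260 with no filter, 604 with the 4 libraries compared and 95 to 3111 with 1 library left out. The 2878 for high flow became 300 to 4004 with 1 library left out. The 69 between the flow rates became 241 with no filter, 116 by DESeq2, 43 with length and GC offsets, 36 with the 4 libraries compared and 4 to 294 with 1 library left out. The labels give the groups the same replicate numbers but not that a number marks a shared source, and deviations of same-numbered libraries correlated at -0.14, -0.05 and 0.14. With the replicate block the low flow count was 907, ATF3 under low flow turned to -0.038, and no call of a member changed. The block ended the low flow calls of BMP2 (0.64, edgeR adjusted p = 0.0693) and ACVR1 (0.45, adjusted p = 0.0684) and the high flow call of RBL1 (-0.39, adjusted p = 0.0647).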
